A study of Mus musculus with 16 samples.

Results

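The promoters described here are those of cytochrome P450 genes of families 1 to 4 in mouse liver. Members were the protein-coding genes of the GENCODE annotation of mouse build mm9 whose symbol is Cyp, a family number from 1 to 4, a subfamily letter and a gene number, together with all listed contacts of the restriction fragments that hold their starts. The rule names 72 of 22380 protein-coding genes. Of these, 39 had their start on a fragment listed as bait, out of 18165 baits, and these 39 baits took part in 428 of 247177 distinct listed pairs. No measured value was used to choose them.

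Promoter Capture Hi-C measures which stretches of chromatin lie near promoters: crosslinked chromatin is cut with HindIII, neighbouring ends are ligated, and products holding a promoter fragment (the bait) are enriched with RNA probes and sequenced. The livers came from wild type males of the inbred strain C57BL/6, which had food at all times. The labels give their age as 8 weeks, and by the study's methods that was the age before 2 weeks under light and dark periods of 12 h each. The 4 groups differed in zeitgeber time (ZT, hours after lights on): ZT0, ZT6, ZT12 and ZT18, each with 3 pools of 2 livers, and 1 pool of each timepoint was sequenced on 2 lanes (16 samples). Whole liver was used, so contacts of hepatocytes and of other liver cells cannot be told apart, and no RNA level was analysed here. Pools were merged before calling, so each timepoint is 1 list of fragment pairs with a CHiCAGO score, which sets the reads of a pair against those expected from distance and noise. No value has a replicate error and no difference between timepoints was tested. The lists held between 146262 pairs at ZT0 and 154775 at ZT6, with scores of at least 5. A pair absent from a list scored under 5 there, which is no measurement of few reads. Timepoints follow the sample labels; a summary given with the study puts the totals of the lists labelled ZT6, ZT12 and ZT18 under ZT18, ZT6 and ZT12, and values read in that order are given where the order matters.

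Cytochrome P450 enzymes are heme proteins that insert an oxygen atom into their substrates, and families 1 to 4 act mainly on drugs, pollutants, steroids, fatty acids and eicosanoids. Most of them sit in the membrane of the endoplasmic reticulum, take electrons from P450 reductase and are most abundant in hepatocytes. Many are switched on by the very compounds they break down, through the aryl hydrocarbon receptor (Cyp1 genes), CAR and PXR (Cyp2b, Cyp2c and Cyp3a genes) or PPAR alpha (Cyp4a genes). Their genes arose by repeated duplication and mostly lie in tandem clusters, so neighbouring members can be near-copies of each other.

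P450 starts lay on a listed bait for 39 of 72 genes (54.2%), against 75.3% of all protein-coding gene starts. A further 5 genes, Cyp2c39, Cyp2j12, Cyp4a31, Cyp4a32 and Cyp2a12, had their start only on a fragment contacted by another bait. The starts of the other 28 genes lay on fragments absent from all 4 lists. The missing starts were unevenly spread over the clusters. None of the 6 genes of the Cyp3a cluster on chromosome 5 was listed, among them Cyp3a11, the main PXR-inducible Cyp3a of mouse liver, and Cyp3a16, Cyp3a25, Cyp3a44, Cyp3a57 and Cyp3a59. In the Cyp2c cluster on chromosome 19, 11 of 14 genes were not listed: Cyp2c29, Cyp2c37, Cyp2c38, Cyp2c40, Cyp2c50, Cyp2c54, Cyp2c65, Cyp2c66, Cyp2c67, Cyp2c68 and Cyp2c69. By contrast all 7 genes of the Cyp4f cluster on chromosome 17 and both Cyp1a genes on chromosome 9 were baits. The remaining unlisted starts were those of Cyp2d9 and Cyp2d12, Cyp2j13, Cyp4a10, Cyp2b13, Cyp2b9, Cyp2a4, Cyp2b23, Cyp2a5, Cyp2a22 and Cyp2r1. Cyp2a5, a coumarin hydroxylase, is the only member in the study's list of circadian genes, so no contact of a circadian member could be described.

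**Figure D1:**
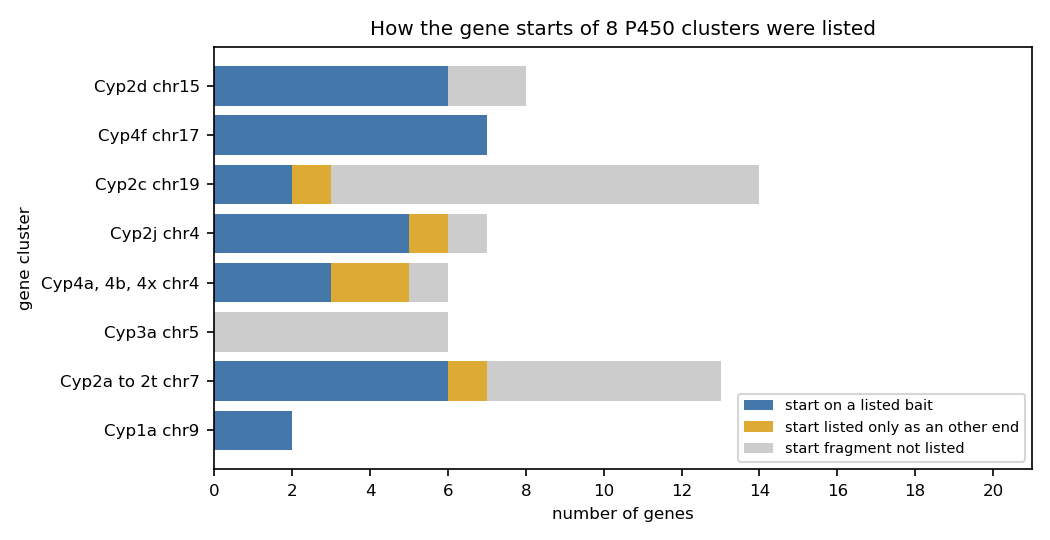
Number of genes (x axis) in each of the 8 clusters with more than 1 member (y axis), coloured by whether the gene start lay on a listed bait, only on a fragment contacted by another bait, or on a fragment in none of the 4 lists; Cyp2a to 2t stands for the cluster of Cyp2a, Cyp2b, Cyp2f, Cyp2g, Cyp2s and Cyp2t genes. The Cyp3a bar has 0 of 6 genes on a bait and the Cyp4f bar 7 of 7.

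Near-identical copies were found mostly at the unlisted starts. Probes of 120 bases are aimed at both ends of a bait fragment, so the 120 bases at each end were searched in mm9 for other stretches at least 100 bases long with at least 95% identity. Both ends had such a copy in 13 of the 28 unlisted genes, in 2 of the 5 listed only as an other end and in 0 of the 39 bait genes. At least 1 end had a copy in 22 unlisted genes, 3 listed only as an other end and 7 bait genes. Some ends had very many copies, such as 39760 for the left end of the unlisted Cyp2b13 fragment and 21291 for the right end of the Cyp2j8 bait. A near-identical copy of the gene start itself, as part of an alignment of at least 1000 bp within 2 Mb, was found for 9 unlisted genes and for 0 bait genes. An alignment of that length on any part of the fragment was found for 13 unlisted genes, 1 listed only as an other end and 3 bait genes. For 6 unlisted genes, Cyp2c29, Cyp2c38, Cyp2c65, Cyp2c66, Cyp2d12 and Cyp2b23, neither end had a copy and no part of the fragment had such an alignment. The fragments of Cyp2c38, Cyp2c65 and Cyp2c66 were shorter than 1000 bp. Whether copies or fragment length decided what was listed was not tested.

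The following fragment ends from mm9 (plus strand) are printed because they show how alike the fragment ends of unlisted members of a cluster can be. The left ends of the Cyp2a4 fragment (chr7:27090327-27090446) and of the Cyp2a5 fragment (chr7:27618470-27618589) differed at 0 of 120 bases, and the fragments aligned over 2756 bp at 98.9% identity. Cyp2a4 is a female-biased steroid hydroxylase of mouse liver, whereas Cyp2a5 is found in both sexes. The right ends of the Cyp2c40 fragment (chr19:39894109-39894228) and the Cyp2c69 fragment (chr19:39969851-39969970) differed at 1 base. Capitals mark the remainder of the HindIII site in the Cyp2a pair and the differing base in the Cyp2c pair.
Cyp2a4 left end: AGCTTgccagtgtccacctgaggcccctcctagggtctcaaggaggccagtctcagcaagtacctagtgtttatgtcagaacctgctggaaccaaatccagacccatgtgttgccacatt
Cyp2a5 left end: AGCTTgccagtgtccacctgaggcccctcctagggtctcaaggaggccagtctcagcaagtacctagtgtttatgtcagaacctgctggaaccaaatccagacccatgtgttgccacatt
Cyp2c40 right end: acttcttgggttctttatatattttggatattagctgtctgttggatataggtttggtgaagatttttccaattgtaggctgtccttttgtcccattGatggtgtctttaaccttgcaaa
Cyp2c69 right end: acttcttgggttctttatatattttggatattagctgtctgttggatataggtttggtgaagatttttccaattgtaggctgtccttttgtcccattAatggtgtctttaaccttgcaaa

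Promoter sequences of 5 baits on which the contact results below turn are given from RefSeq (GRCm38.p6, a later build than that of the contact lists, so no position is shared between them). Each window runs from 250 bases before to 50 bases after the gene start and is written in the gene's direction. Cyp1a1 (chr9:57697363-57697662, plus strand) and Cyp1a2 (chr9:57683606-57683905, minus strand) are neighbours with different contacts, and Cyp2j5 (chr4:96664070-96664369), Cyp2j6 (chr4:96553602-96553901) and Cyp2j9 (chr4:96591436-96591735), all on the minus strand, contact each other. Capitals mark the motifs searched on both strands: the E-box CACGTG, the core of the dioxin response element GCGTG, the nuclear receptor core site AGGTCA, the D-box TTATGTAA or TTACGTAA, and the HNF4 sequence CAAAGTCCA, none of which contains another.
Cyp1a1: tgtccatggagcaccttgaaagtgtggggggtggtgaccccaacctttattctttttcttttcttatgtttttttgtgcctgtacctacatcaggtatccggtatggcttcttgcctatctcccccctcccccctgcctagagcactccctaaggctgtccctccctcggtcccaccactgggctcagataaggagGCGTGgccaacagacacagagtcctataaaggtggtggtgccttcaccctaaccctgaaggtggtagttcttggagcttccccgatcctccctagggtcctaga
Cyp1a2: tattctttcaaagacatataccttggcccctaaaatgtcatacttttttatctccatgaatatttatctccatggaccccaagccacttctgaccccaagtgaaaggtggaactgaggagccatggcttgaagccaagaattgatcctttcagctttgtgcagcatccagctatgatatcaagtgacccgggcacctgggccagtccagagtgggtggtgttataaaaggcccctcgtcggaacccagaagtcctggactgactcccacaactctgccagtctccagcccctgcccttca
Cyp2j5: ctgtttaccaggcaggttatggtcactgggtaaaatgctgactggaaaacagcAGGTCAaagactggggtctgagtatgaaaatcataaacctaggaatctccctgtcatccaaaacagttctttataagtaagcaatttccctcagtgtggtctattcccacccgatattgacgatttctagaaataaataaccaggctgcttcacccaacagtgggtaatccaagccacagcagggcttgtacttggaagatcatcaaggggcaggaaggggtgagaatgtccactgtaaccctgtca
Cyp2j6: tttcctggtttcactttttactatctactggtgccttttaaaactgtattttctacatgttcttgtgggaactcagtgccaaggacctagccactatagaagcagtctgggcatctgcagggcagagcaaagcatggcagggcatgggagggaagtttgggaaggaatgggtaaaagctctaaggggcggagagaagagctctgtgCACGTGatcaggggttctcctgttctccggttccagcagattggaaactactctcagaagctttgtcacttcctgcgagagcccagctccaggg
Cyp2j9: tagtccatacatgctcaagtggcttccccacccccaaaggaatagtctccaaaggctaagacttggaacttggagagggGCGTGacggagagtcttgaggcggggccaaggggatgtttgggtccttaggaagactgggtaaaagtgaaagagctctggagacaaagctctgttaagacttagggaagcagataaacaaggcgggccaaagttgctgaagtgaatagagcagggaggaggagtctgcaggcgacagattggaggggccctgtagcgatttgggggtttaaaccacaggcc
The Cyp1a1 window held 1 dioxin response core and the Cyp1a2 window held none of these motifs. Each of the 3 Cyp2j windows held a different one: a core site in Cyp2j5, an E-box in Cyp2j6 and a dioxin response core in Cyp2j9.

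RefSeq windows were found for 60 of the 72 members. The HNF4 sequence was in 8 of them (13.3%), against 0.477% of all 27025 windows, and the 8 were Cyp2c40, Cyp2c65, Cyp2c67, Cyp2c68, Cyp2c69, Cyp2c70, Cyp3a11 and Cyp3a16. Only Cyp2c70 among these was a listed bait, and several of the 8 are near-copies of each other, so they are not independent. The core site AGGTCA was in 18 member windows (30%, all windows 16.0%). These 18 are not independent either, since they include cluster neighbours such as Cyp2a4 with Cyp2a5 and several Cyp2b and Cyp3a genes. The listed baits among them were only Cyp2b19, Cyp2c70, Cyp2d40, Cyp2f2, Cyp2j5 and Cyp2t4, and 31 of the 39 bait genes had a window. The dioxin response core was in 13 (21.7%, all 32.5%), the E-box in 2 (Cyp2j6 and Cyp4v3, 3.33%, all 7.24%) and the D-box in 0 (all 1.06%).

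The P450 baits had a median of 7 contacts over the 4 lists (range 1 to 60), against 9 for all baits. There were 16 baits with 5 contacts or fewer and 16 with 10 or more. By timepoint the 428 pairs were listed 227 (ZT0), 265 (ZT6), 253 (ZT12) and 245 (ZT18) times, or between 0.155% and 0.171% of each list. All joined fragments of the same chromosome. The median distance between fragment midpoints was 122 kb (all pairs 162 kb), and 43.9% of member pairs spanned over 150 kb (95% Wilson interval 39.3 to 48.7), against 53.3% of all pairs; these intervals cover counting error only, and contacts of 1 bait are not independent. The other end was itself a bait in 105 pairs (24.5%, interval 20.7 to 28.8). This compares with 15.4% of all pairs and 17.4% of the pairs of baits with a protein-coding gene start. Without the 21 pairs that join P450 baits to each other, the share was 20.6% (17.0 to 24.8). Counted from each member, 209 of 449 other ends (46.5%) lay outside protein-coding genes, 118 held a gene start, 91 an exon and 31 only intron. The 17 listed baits among 19 P450 genes of other families, most of which act on sterols, steroid hormones and vitamins, had a median of 18 contacts.

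A few baits held much of the data. Cyp2d26, a liver P450 at the edge of the Cyp2d cluster, had 60 contacts, more than 96.4% of all baits. Next came Cyp4a14 with 31, Cyp2f2 with 29, Cyp4v3 with 24, Cyp1a1 and Cyp2g1 with 21 each, and Cyp2j5 and Cyp2j6 with 20 each. Of the baits with few contacts, Cyp2j8, Cyp2s1 and Cyp4f14 had 1 contact. Cyp4a14 had 19, 21, 19 and 17 contacts at ZT0, ZT6, ZT12 and ZT18, the order in which values are given from here on.

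**Figure D2:**
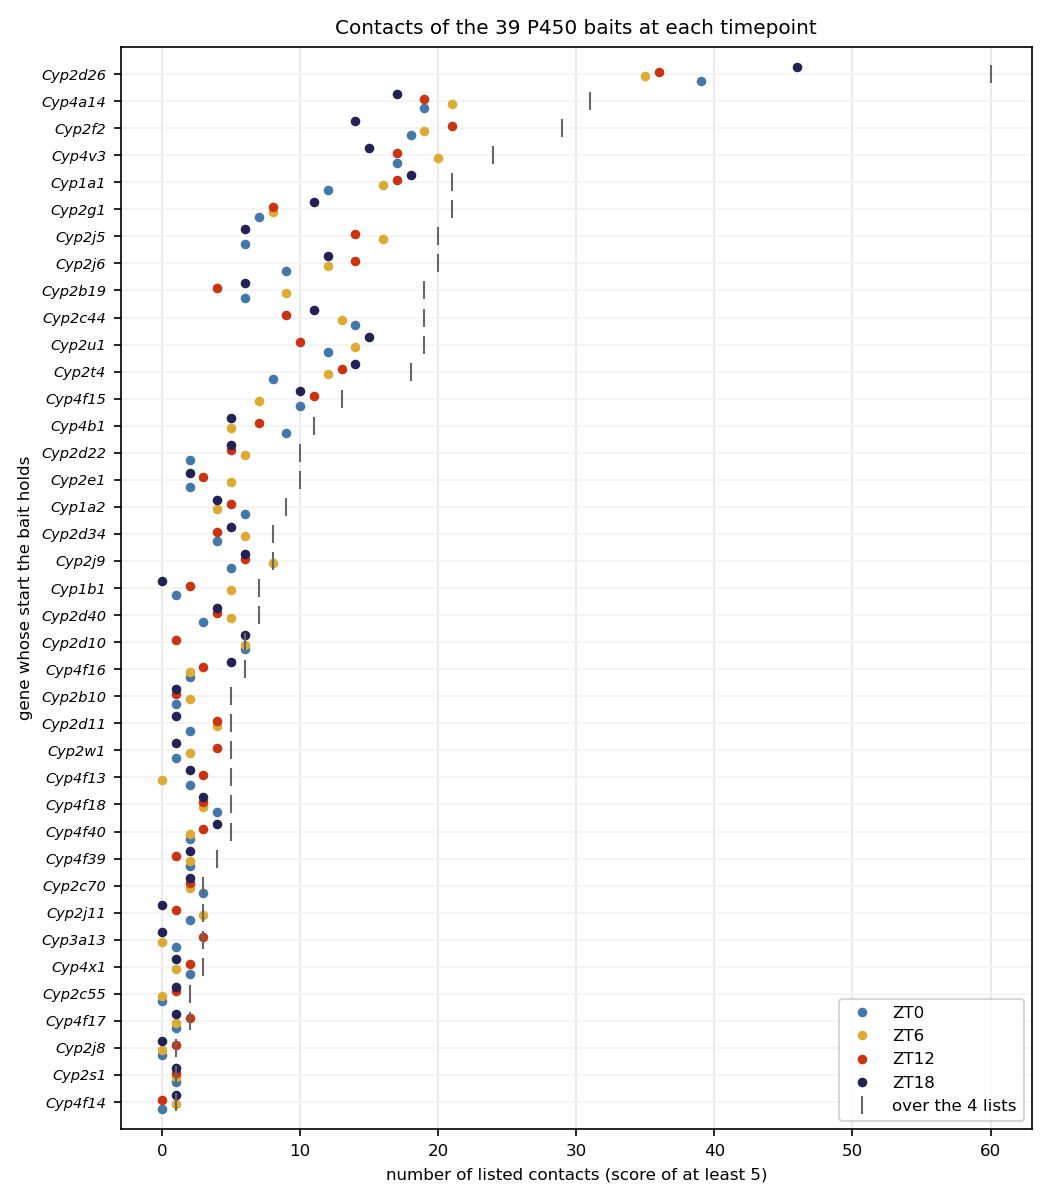
Number of listed contacts (x axis, score of at least 5) of each of the 39 P450 baits (y axis, sorted by their total); coloured points give the 4 timepoints and the grey tick the distinct contacts over the 4 lists. Cyp2d26 lies apart from the rest with 35 to 46 contacts a timepoint, and the points of Cyp2j5 are split between 6 at ZT0 and ZT18 and 14 to 16 at ZT6 and ZT12.

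The Cyp1a genes, which encode the enzymes most strongly induced through the aryl hydrocarbon receptor, lie head to head on chromosome 9 with starts 13.96 kb apart. Their baits contacted each other at all 4 timepoints, with scores of 11.4, 10, 14.5 and 19.3 in the lists labelled ZT0, ZT6, ZT12 and ZT18. The score was highest at ZT18 and lowest at ZT6, or highest at ZT12 and lowest at ZT18 in the other order of timepoints. The Cyp1a1 bait (chr9:57543780-57546434) had 12, 16, 17 and 18 contacts at the 4 timepoints, and 12 of its 21 contacts were listed at all of them, all within 66.5 kb. Most of these lay in the bodies of the next genes downstream: 6 in Edc3, which encodes an activator of mRNA decapping, and 5 in Clk3, a kinase of splicing factors, with 1 fragment counted in both. The strongest of them were 3 fragments of Edc3 with highest scores of 14.5, 14.3 and 14.2.

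The Cyp1a2 bait (chr9:57529813-57534315), at the gene of the main caffeine-metabolising P450 of liver, had 6, 4, 5 and 4 contacts. All 9 of its contacts were to other baits, against 1 of 21 for Cyp1a1. Its strongest contact was the fragment of the Edc3 start 25.8 kb away, with scores of 16.0, 11.0, 18.3 and 21.6, followed by the Clk3 start with 20, 13.1, 13.1 and 13.0. Thus Cyp1a2 was listed with the starts of the genes in whose bodies Cyp1a1 had its contacts. Baits with at least 5 contacts that were listed with other baits only made up 3 of 29 members (Cyp1a2, Cyp2d10 and Cyp4f13) and 6.01% of all such baits, and whether probes of these 3 captured their fragments like those of other baits was not tested. Cyp1b1, the third gene induced by the aryl hydrocarbon receptor and mostly active outside liver, had 1, 5, 2 and 0 contacts, none of its 7 at all 4 timepoints.

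In the Cyp2d cluster on chromosome 15, whose enzymes oxidise many basic drugs and steroids, 6 of 8 genes were baits with 90 pairs between them. Cyp2d26 (chr15:82622928-82626178) had 39, 35, 36 and 46 contacts at ZT0, ZT6, ZT12 and ZT18. Of its 60 contacts 53 lay downstream, toward the rest of the cluster, 47 lay outside protein-coding genes and 25 were listed at all 4 timepoints. The highest score of any P450 bait was that of Cyp2d26 with the fragment of Cyp2d37-ps (chr15:82519793-82523451), a pseudogene by its name, 103 kb away: 32.8, 43.3, 52.3 and 47.6. Without Cyp2d26, the share of member pairs listed at all 4 timepoints was 27.4% in place of 29.4%.

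The Cyp2d10 bait had 6, 6, 1 and 6 contacts. Its pair with the start of Ndufa6, a subunit of respiratory complex I, scored 31.0, 27.0, 21.7 and 35.8 and was its only contact at ZT12. Its contact with Cyp2d22 scored 15.2, 10.02 and 10.1 at ZT0, ZT6 and ZT18, and that with Cyp2d26, 390 kb away, scored 10.8, 6.46 and 8.82. Neither was in the list labelled ZT12, which is ZT6 in the other order. Cyp2d22 itself had 2, 6, 5 and 5 contacts. The Ndufa6 fragment (chr15:82181577-82189511) was contacted by 5 P450 baits, Cyp2d10, Cyp2d11, Cyp2d22, Cyp2d26 and Cyp2d34, more than any other fragment, and with 3 of them it was listed at all 4 timepoints.

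The cluster of Cyp2a, Cyp2b, Cyp2f, Cyp2g, Cyp2s and Cyp2t genes on chromosome 7 spans 1337 kb and had 6 baits among 13 genes. Cyp2f2, which activates naphthalene in mouse lung and liver, had 18, 19, 21 and 14 contacts, of which 26 of 29 lay upstream. It reached 348.5 kb to a fragment between the Cyp2b19 and Cyp2g1 baits (chr7:27559744-27560888) with scores of 13.8, 16.6, 18.1 and 17.4. Another of its contacts is a fragment short enough to be shown whole. The 293-base fragment chr7:27844581-27844873 (mm9, plus strand; capitals mark what is left of the HindIII sites), which lay 64.1 kb from the Cyp2f2 bait and outside protein-coding genes, was listed with scores of 11.3, 9.84, 17.2 and 10.1.
Cyp2f2 contact: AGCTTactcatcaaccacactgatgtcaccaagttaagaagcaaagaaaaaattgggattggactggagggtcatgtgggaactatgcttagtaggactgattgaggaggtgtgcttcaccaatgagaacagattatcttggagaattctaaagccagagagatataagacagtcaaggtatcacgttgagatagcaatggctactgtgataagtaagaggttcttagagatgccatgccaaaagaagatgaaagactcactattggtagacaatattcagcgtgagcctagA

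Cyp2t4 had 8, 12, 13 and 14 contacts and its strongest was with the fragment of the Snrpa and BC024978 starts (25.2, 22.1, 16.1 and 24.1), which Cyp2b19, Cyp2f2 and Cyp2g1 contacted as well. Snrpa encodes a protein of the U1 splicing particle. The baits of Cyp2g1, an enzyme of the olfactory mucosa, and Cyp2b19, an enzyme of skin, differed from these: only 2 of 21 and 0 of 19 of their contacts were listed at all 4 timepoints, and their median distances were 475 and 396 kb. Cyp2b10, the classic CAR target, had 1, 2, 1 and 1 contacts, all 5 at a single timepoint and with highest score 7.73. Cyp2s1, expressed mainly outside liver, had a contact with the start of Hnrnpul1 at every timepoint (5.91, 7.99, 7.92 and 5.99).

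In the Cyp2j cluster on chromosome 4, whose enzymes make epoxides of arachidonic acid, contacts were listed mostly at ZT6 and ZT12. The cluster's 49 pairs were listed 19 times at ZT0, 21 at ZT18, 36 at ZT6 and 34 at ZT12. From a score of 7 upward the numbers were, in the order of the day, 5, 18, 15 and 9, and at 10 or more they were 2, 7, 6 and 1. Cyp2j5 (chr4:96330378-96332225), known from kidney and liver, had 6, 16, 14 and 6 contacts, the largest range over timepoints of a bait other than Cyp2d26. With a score of at least 7 it had 0, 7, 6 and 5. Cyp2j6 had 9, 12, 14 and 12 contacts and Cyp2j9 had 5, 8, 6 and 6. With another end within 10 kb accepted as the same contact, the pattern was weaker. By that rule 18 of the 20 contacts of Cyp2j5 were found at all 4 timepoints, against 4 by exact fragment. The numbers were 15 of 20 for Cyp2j6 (7 by exact fragment) and 7 of 8 for Cyp2j9 (4 by exact fragment). They were 0 of 3 for Cyp2j11 and 0 of 1 for Cyp2j8. Of the 13 pairs of the cluster listed at all 4 timepoints, 12 scored highest at ZT6 or ZT12, against 51.6% of all such pairs in the lists and 75 of 126 (59.5%) of all member pairs. This was counted after the ZT6 and ZT12 numbers of the cluster were known. The other clusters had 23 of 32 (Cyp2d), 9 of 17 (Cyp2a to Cyp2t), 8 of 14 (Cyp4a, Cyp4b and Cyp4x), 8 of 14 (Cyp1a), 1 of 2 (Cyp2c) and 1 of 8 (Cyp4f, with 7 highest at ZT18). In the other order of timepoints the cluster had 19, 34, 21 and 36 pairs, and Cyp2j5 had 6, 14, 6 and 16, so the pattern would then have 2 peaks a day.

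The Cyp2j baits also contacted the same fragments. Cyp2j6 and Cyp2j9 were both listed at all 4 timepoints with chr4:96344857-96349431, a fragment outside protein-coding genes and upstream of Cyp2j5, at scores of 6.67, 15.5, 13.3 and 7.63 for Cyp2j6 and of 10.04, 12.4, 14.4 and 8.23 for Cyp2j9. For Cyp2j6 the scores at ZT6 and ZT12 lay well above those at ZT0 and ZT18, and for Cyp2j9 they lay less far apart. Both were also listed at every timepoint with chr4:96356663-96361109 (11.9, 11.2, 12.4 and 10.1 for Cyp2j6), which Cyp2j11 contacted at 3 timepoints. All 20 contacts of Cyp2j5 lay downstream of its start, toward Cyp2j9 and Cyp2j6, and 19 of the 20 of Cyp2j6 lay upstream, toward Cyp2j5.

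**Figure D3:**
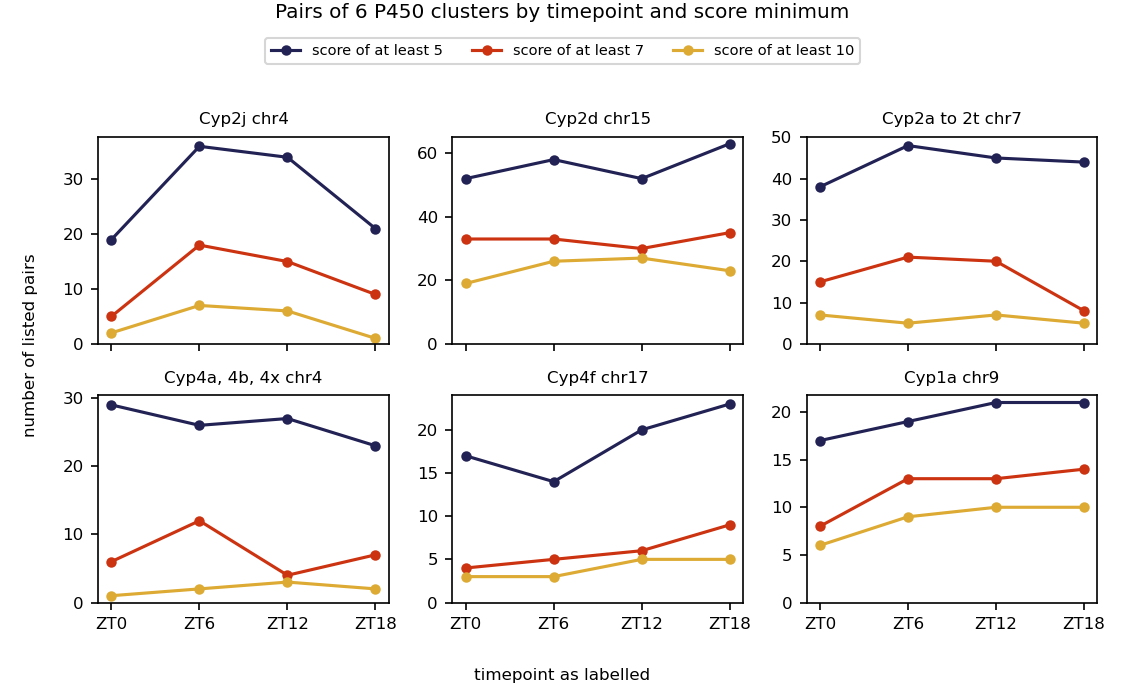
Number of listed pairs (y axis, starting at 0 and scaled to each panel) of 6 P450 clusters at the 4 timepoints as labelled (x axis), at score minimums of 5, 7 and 10. The Cyp2j panel has 36 and 34 pairs at ZT6 and ZT12 against 19 and 21 at ZT0 and ZT18, and keeps this shape at scores of 7 and 10, whereas the Cyp1a panel runs from 17 pairs at ZT0 to 21 at ZT12 and ZT18.

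The Cyp4 genes encode enzymes that hydroxylate the far end of fatty acids and eicosanoids. Cyp4a14 (chr4:115166863-115171473), a PPAR alpha target, had 29 of its 31 contacts upstream, toward Cyp4a31, Cyp4a32 and Cyp4b1. Its strongest contact was chr4:115386807-115387819, outside protein-coding genes and 218 kb away, with scores of 17.2, 14.7, 12.8 and 12.8. The start of Cyp4a32, itself not a bait, was contacted by Cyp4a14 at all 4 timepoints (6.43, 8.95, 5.35 and 7.39). Cyp4a10, the other PPAR alpha target of the cluster, was not listed.

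Cyp4b1 had 9, 5, 7 and 5 contacts and was listed with Cyp4a14 at ZT0, ZT6 and ZT12 (6.07, 6.58 and 7.87). In the Cyp4f cluster the bait with most contacts was Cyp4f15 (10, 7, 11 and 10), and its pair with a fragment of Gm9705 50.5 kb away scored 22.1, 28.0, 26.6 and 28.2. Cyp4f14, which inactivates leukotriene B4, had 1 contact, listed at ZT6 and ZT18.

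Cyp4v3 (chr8:46410697-46420734), a fatty acid hydroxylase, had 17, 20, 17 and 15 contacts. Its surroundings hold the coagulation genes F11 (factor XI) and Klkb1 (plasma prekallikrein), which are both made in liver. Of its 24 contacts 8 lay in F11 and 6 in Klkb1, with 6 and 2 of these listed at all 4 timepoints. The pair with the F11 start scored 12.7, 10.8, 11.3 and 12.0, and that with the start of Mtnr1a, a melatonin receptor, 262 kb away, scored 6.97, 11.2, 8.36 and 9.85.

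Baits with no other member start within 1 Mb had from 3 to 24 contacts. Cyp2u1 (chr3:130996422-131006941), a long-chain fatty acid hydroxylase, had 12, 14, 10 and 15 contacts, 18 of 19 upstream and 17 outside protein-coding genes. Its strongest was with the start of Papss1, which makes the sulfate donor of sulfation, 227 kb away (19.4, 21.2, 15.2 and 18.0). Cyp2c44, an epoxygenase, had 14, 13, 9 and 11 contacts, none over 91.9 kb, and those listed at every timepoint included the starts of Erlin1, Chuk and Cpn1. Cyp2e1 (chr7:147946203-147950546), the ethanol-oxidising P450 and among the most abundant in hepatocytes, had 2, 5, 3 and 2 contacts. All 10 lay upstream at 547 to 685 kb, 8 were gene starts, and none was listed at all 4 timepoints. Its highest score was 8.44, and none of its contacts reached 10. Cyp2c70, which makes muricholic bile acids and is 1 of the 2 baits of the Cyp2c cluster, had 3, 2, 2 and 2, the strongest with a fragment 30.2 kb away (10.2, 6.67, 13.8 and 12.9). Cyp3a13, the only Cyp3a bait, had 1, 0, 3 and 0. Cyp2r1, the vitamin D hydroxylase of liver, was not listed. Cyp2w1 had 1, 2, 4 and 1 contacts on a fragment that also holds the start of Cox19, and Cyp4f18, the leukotriene B4 hydroxylase of neutrophils, had 4, 3, 3 and 3.

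**Figure D4:**
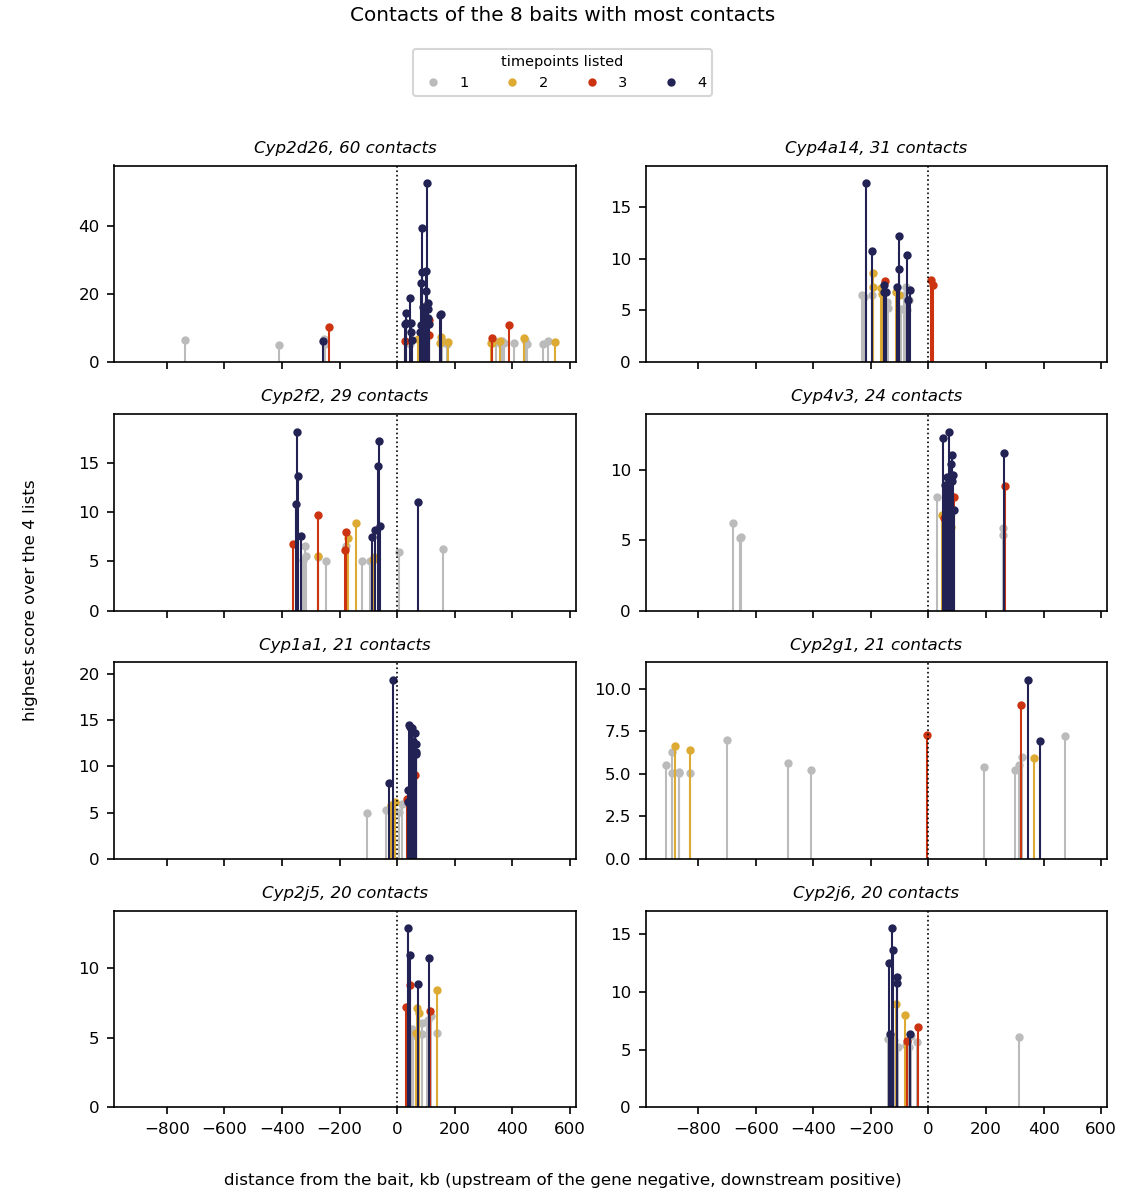
Contacts of the 8 P450 baits with most contacts: distance from the bait in kb (x axis, upstream of the gene negative) against the highest score over the 4 lists (y axis, scaled to each panel), coloured by the number of timepoints at which the pair was listed. Contacts of Cyp2d26, Cyp1a1, Cyp2j5 and Cyp4v3 listed at 4 timepoints lie mostly downstream and those of Cyp4a14, Cyp2f2 and Cyp2j6 upstream, while Cyp2g1 has scattered contacts out to 910 kb on the upstream side, mostly grey.

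Contacts between P450 promoters were listed for 21 pairs of member baits. All lay inside a gene cluster, which follows largely from how clusters were drawn: members of different clusters lie over 1 Mb apart or on other chromosomes, and the longest member contact spanned 1199 kb. Of the 21 pairs 6 were listed at all 4 timepoints: Cyp1a2 with Cyp1a1, Cyp2d40 with Cyp2d26 (14.1, 12.2, 14.1 and 14.4), Cyp2j6 with Cyp2j5, Cyp2j9 with Cyp2j5, Cyp2g1 with Cyp2t4 and Cyp4f16 with Cyp4f15. The Cyp2j6 to Cyp2j5 pair scored 6.54, 10.7, 9.30 and 8.01. The longest of the 21 joined Cyp2b10 and Cyp2g1 across 910 kb and was listed at ZT18 only (5.50). For the baits in clusters, 239 of 357 contacts (66.9%) had their other end between the first and last gene start of the same cluster, from 3 of 30 in the short Cyp1a pair to 29 of 36 in the Cyp4f cluster. Of 368 distinct fragments contacted, 61 were contacted by more than 1 member and 14 by at least 3.

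**Figure D5:**
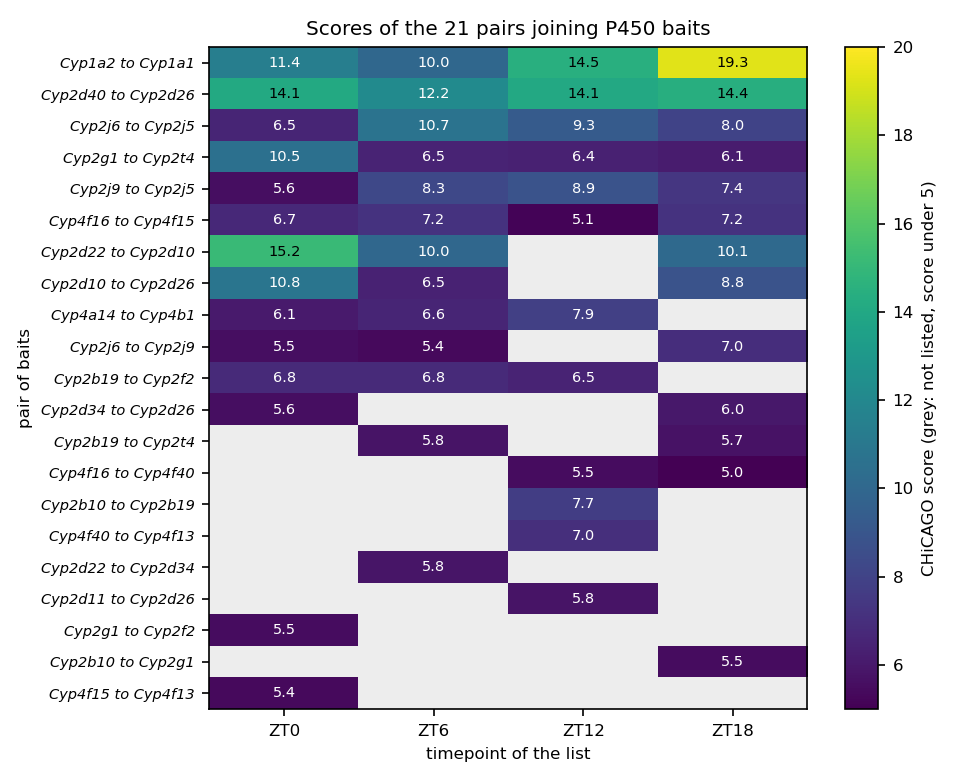
CHiCAGO score (colour and number) of the 21 pairs that join P450 baits (rows) at each timepoint (columns); grey means not listed, so under 5. The top 6 rows are listed at all timepoints, Cyp1a2 to Cyp1a1 is brightest at ZT18 (19.3), and both Cyp2d10 rows are grey at ZT12 only.

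By known role, the listed data covered some groups and missed others. All 3 genes induced by the aryl hydrocarbon receptor were baits (7 to 21 contacts), as were 6 genes chosen as examples of expression mostly outside liver (Cyp2g1, Cyp4b1, Cyp2s1, Cyp1b1, Cyp4x1 and Cyp2w1; 1 to 21 contacts, median 6). That list is not complete: Cyp2b19 (19 contacts) and Cyp4f18 (5 contacts) are not on it. Of 4 genes induced through CAR or PXR, Cyp2b10 and Cyp2c55 were baits, with 5 and 2 contacts, none at all timepoints. None of 5 genes chosen as examples of female-biased expression (Cyp2a4, Cyp2b9, Cyp2b13, Cyp3a16 and Cyp3a44) was listed. Cyp2d9, chosen as an example of male bias, was not listed either. These examples are not all the sex-biased members. Starts lay on a bait for 54.2% of all members and 75.3% of all protein-coding genes. Of 10 genes chosen as examples of high levels in hepatocytes, 6 were baits with a median of 19.5 contacts. They ranged from 6 for Cyp2d10 to 60 for Cyp2d26, and Cyp2e1 had 10. The examples include the baits with most contacts (Cyp2d26, Cyp4a14 and Cyp2f2). They leave out other members found in liver, such as Cyp2c70 (3 contacts) and Cyp2j5 (20 contacts). Groups of this size allow no statement beyond these counts.

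Over the day, 126 of the 428 member pairs (29.4%, interval 25.3 to 33.9) were listed at all 4 timepoints, against 32.5% of all pairs, and 174 (40.7%, 36.1 to 45.4) at a single timepoint, against 35.2%. The background share thus lies inside the members' interval for pairs at all timepoints and just below it for pairs at 1 timepoint. At a score of at least 10 the order turned: 36.9% of 84 member pairs were listed at all timepoints (all pairs 34.6%) and 28.6% at 1 (all pairs 32.7%). The single bait Cyp2d26 held 24 of those 84 pairs, and the shares at that score were not recomputed without it. Of the 174 pairs, the ZT6 list held 58, the ZT12 list 45, the ZT18 list 41 and the ZT0 list 30. Their median highest score was 5.65, close to the minimum of the lists, whereas it was 11.0 for pairs at all timepoints. Taking a neighbouring other end within 10 kb as the same contact, 63.3% of member pairs (all pairs 72.4%) were found at all timepoints and 16.1% (all pairs 9.17%) at 1. Among the 16 baits with at least 10 contacts, the highest number was at least 2-fold the lowest for 4 (25%), Cyp2d22, Cyp2j5, Cyp2b19 and Cyp2e1, against 24.4% of all such baits, a share near the background. The timepoint with most contacts was ZT6 for 12 of the 39 baits, ZT12 for 8, ZT18 for 7 and ZT0 for 5, with 7 ties. In percent of baits this was 30.8 at ZT6, 20.5 at ZT12, 17.9 at ZT18 and 12.8 at ZT0, against 21.7, 17.9, 18.1 and 14.6 of all baits (27.7 tied), which also had ZT6 as the most and ZT0 as the least frequent. Divided by the totals of the lists, the order of all baits was another, with ZT0 the most frequent (31.4%), while that of the members kept ZT6 first with 12 baits and 9 at each other timepoint.

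Of genes chosen here as serving or controlling P450 enzymes, all 5 for electron supply and heme and all 13 regulators were listed as baits. Among all protein-coding gene starts the share on a bait was 75.3%. Por, which encodes P450 reductase, had 4 contacts, and Cyb5 and Cyb5r3 had 5 each. Hmox1 (heme breakdown) had 18 and Alas1, the first step of heme synthesis, had 32, of which 20 were at all timepoints. The 13 regulators had a median of 23 contacts, from 2 for Nr0b2 to 115 for Hlf. The CAR gene Nr1i3 had 52 contacts with a highest score of 120, and the PXR gene Nr1i2 had 27, whereas Ahr had 9 and Ppara 23. These numbers are levels of listing at single promoters and were not set against the P450 baits by a test.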

How the data were processed

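The authors mapped reads of the liver libraries to mm9 with HiCUP, combined all pools of each timepoint and scored fragment pairs with CHiCAGO (versions not given in the sources used here). The deposited values are CHiCAGO scores (transformed from weighted p-values), 1 per fragment pair and timepoint, and only pairs with a score of at least 5 were deposited. Read depth was not analysed here. Of 129887 listed fragments, 129886 matched HindIII fragments of mm9. Pairs were taken as unordered. A bait is a fragment listed first at any timepoint, and contacts were counted from both ends. Distances run between fragment midpoints. A cluster holds starts within 1 Mb of the next. Copies were searched with blastn 2.17.0, and tables were handled with pandas 2.3.3, numpy 2.4.6, scipy 1.17.1 and pysam 0.24.0 in python 3.11.15. Counts were checked on simulated lists. No test was run, since each timepoint is 1 list. The members, lists of roles and alternatives were chosen with earlier results of these data known. Genes named are 16 fixed P450 genes, the 8 baits with most contacts, the bait with most contacts in each cluster, the 5 with the largest range over timepoints and members not listed; others were named after their values were seen. Alternatives are given in the closing section.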

Additional observations from a re-analysis of the deposited data

How the results depend on the processing

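Of 92 values recomputed, 68 stayed within the limits used here (1.5-fold of the main count, or the counting interval of the main value) and 24 did not. A score of at least 7 left 181 pairs (95, 135, 105 and 98 at ZT0, ZT6, ZT12 and ZT18), a median of 3 contacts and 11 pairs joining members. Of the 181 pairs, 35.4% reached 7 at only 1 timepoint (34.1% of all pairs) and 30.4% spanned over 150 kb (all 50.4%). A score of at least 10 left 84 pairs (47, 60, 63 and 53), a median of 1 contact and 6 pairs joining members. Of the 84 pairs, 36.9% reached 10 at all timepoints (34.6% of all pairs) and 28.6% at only 1 (all 32.7%). With a score of at least 5, 76 of the 84 (90.5%, all 89.7%) were listed at all 4 timepoints. Of the same 84 pairs, 22.6% spanned over 150 kb (all 48.2%) and 32.1% went to another bait (all 19.98%). For reaching 10 the members thus lay above all pairs at all timepoints and below them at 1, unlike at a score of 5. These shares rest on 31 and 24 of 84 pairs and have no interval, so no change of order is read from them. Cyp2d26 held 24 of the 84 pairs, and it was left out only at a score of 5. Whether the shares at 10 depend on this bait was not tested. Accepting an other end within 10 kb gave 63.3% at all timepoints and 16.1% at 1. Divided by the totals of the lists, most contacts fell at ZT0 for 9 baits, and in the other order of timepoints most fell at ZT18 for 12. Equal numbers of top-scoring pairs, any transcript start, leaving out the bait shared with another gene start (Cyp2w1), leaving out baits with near-identical copies, and, chosen after seeing the data, leaving out Cyp2d26 moved no value past these limits. The causes were not tested. No paired analysis was possible because each timepoint is 1 list called on all its pools, and leaving out a pool was not run for the same reason. Absence from a list, unknown read depth and the 33 members without a bait limit every count.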
